A study of Mus musculus with 6 samples.

Results

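Lysosomes are acidic organelles in which hydrolases break down engulfed and worn-out material, while membrane proteins protect the organelle and carry the products out. Most of the soluble enzymes act on 1 kind of bond each, so that glycolipids, glycosaminoglycans, glycoproteins, cholesteryl esters and glycogen each need a set of them, and some lipids need an activator protein beside the enzyme. In macrophages, which clear dying cells, this machinery is expressed at high levels. The members described here are 34 genes for lysosomal hydrolases, their activators and lysosomal membrane proteins, chosen by name as textbook components without cathepsins or proton pump subunits. All 34 were found by symbol among the 34745 genes listed, and all 34 were among the 12546 genes that passed the filter on low counts.

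Messenger RNA was sequenced from macrophages sorted from hearts of mice that lack legumain (Lgmn KO, 3 libraries, replicates 1, 2 and 4) and of wild-type mice (WT, 3 libraries, replicates 1, 2 and 3). Legumain, encoded by Lgmn, is an asparaginyl endopeptidase of the lysosome. All mice were C57BL/6 and 8 weeks old, and all samples were taken after myocardial infarction per the series design, although the labels also mention sham surgery without assigning it. The sources used here do not say how Lgmn was inactivated, whether the deletion is restricted to a cell type, how long after infarction the hearts were taken, or whether each library came from 1 animal. The p-values therefore reflect library-to-library spread alone, which could be technical.

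Libraries held 19546253 to 24086976 counts. Levels are given as CPM, counts relative to library size after TMM scaling. At these depths 0 counts in a library allow up to 0.125 to 0.153 CPM (3 counts, counting error only). Lgmn was at 78.7, 88.5 and 83.5 CPM in Lgmn KO, against 2205, 2692 and 2277 CPM in WT. Of the surface proteins stained for the sort, CD45 (Ptprc) was at 401 to 460 CPM in Lgmn KO, against 330 to 473 CPM in WT, CD11b (Itgam) at 681 to 737 CPM in Lgmn KO against 723 to 1083 in WT, and CD64 (Fcgr1) at 78.2 to 123 CPM in Lgmn KO against 114 to 311 in WT. Summed over 8 markers of resident cardiac macrophages the level was 167 to 199.6 CPM in Lgmn KO, against 157 to 230 CPM in WT, with 4 of 5 tested genes negative, 1 called lower and Lyve1 at 0 counts in all libraries. Summed over 14 macrophage markers the level was 25871 to 30578 CPM in Lgmn KO, against 31898 to 35630 CPM in WT. Of the 14, 13 had a negative log2 fold change and 1 was called lower. Summed over 11 markers of monocytes and recruited macrophages it was 586 to 736 CPM in Lgmn KO against 665 to 921 CPM in WT, with 9 of 10 tested genes negative and 2 called lower. In that list Ccr2, which was not called, was at 3.88 to 6.42 CPM in Lgmn KO against 11.4 to 67.2 CPM in WT. The 15 T and NK cell markers summed to 2.81 to 4.57 CPM in Lgmn KO against 10.9 to 29.1 CPM in WT, with Ncr1 at 0 throughout, all 5 tested genes negative and none called. Fibroblast markers summed to 45.4 to 117 CPM in Lgmn KO against 132 to 181 CPM in WT, and neutrophil markers to 201 to 232 CPM in Lgmn KO against 170 to 199.8 CPM in WT. Endothelial markers summed to 796 to 919 CPM in Lgmn KO against 660 to 794 CPM in WT, with 1 called lower and Tek and Emcn at 0 throughout. Dendritic cell markers summed to 210 to 303 CPM in Lgmn KO against 288 to 353 CPM in WT, with 5 of 6 tested genes negative, 1 called lower and Siglech at 0. Outside these lists Cd74, the invariant chain of antigen presentation, chosen after its values were seen, fell to 102 to 117 CPM in Lgmn KO against 521 to 1902 CPM in WT (adjusted p = 0.0263, edgeR).

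Of the 34 lysosomal genes 1 passed the test over all genes in Lgmn KO macrophages. Gm2a, which encodes the GM2 activator protein, fell in Lgmn KO. No member was called higher. Over all genes tested 0.478% were called lower and 0.311% higher at an adjusted p of 0.05, by edgeR's quasi-likelihood test with Benjamini-Hochberg adjustment. Summed over the 34 members the level was 52107, 53479 and 54832 CPM in Lgmn KO, against 52129, 50776 and 52935 CPM in WT. The group ranges of this sum overlapped. The median log2 fold change of the members was 0.03, with 21 positive and 13 negative. Over all genes tested the median was -0.002 and 49.6% of values were positive. The members took 5.07% to 5.42% of all counts in a library.

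**Figure D1:**
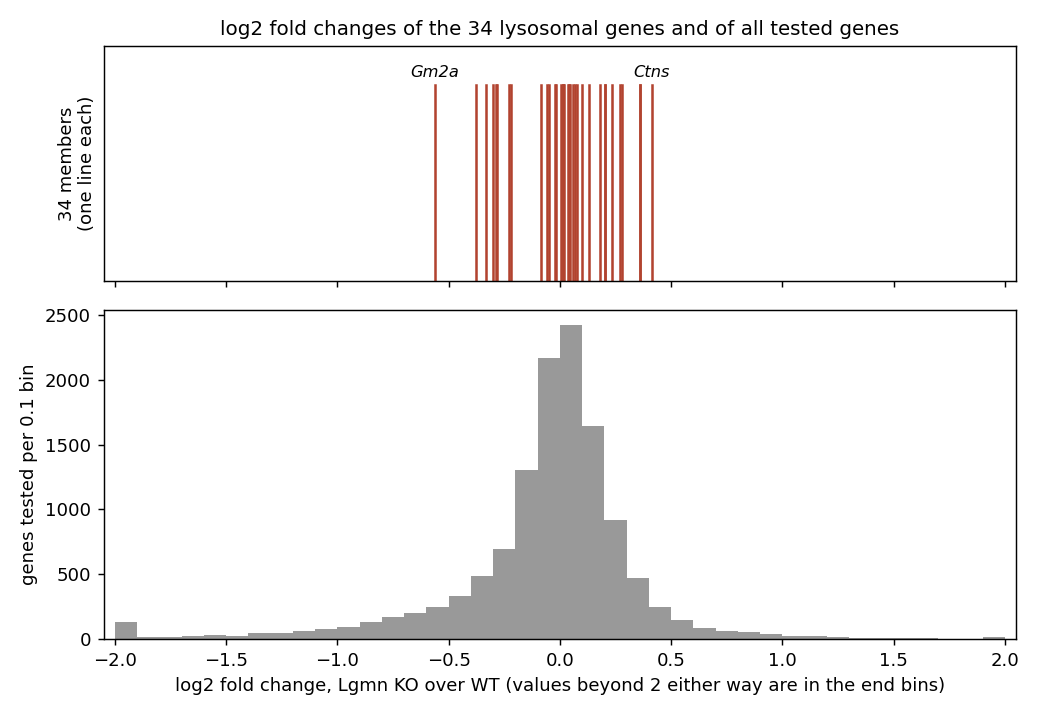
Upper panel: fold change (log2, Lgmn KO over WT) for each of the 34 lysosomal genes, 1 line per gene. Lower panel: histogram of the same quantity for all 12546 genes tested. The members lie between -0.56 (Gm2a) and 0.41 (Ctns).

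Gm2a was measured at 253, 261 and 247 CPM in Lgmn KO and at 355, 384 and 382 CPM in WT. Its 3 Lgmn KO libraries lay close together and all below the WT libraries. The GM2 activator protein lifts ganglioside GM2 out of the membrane and presents it to beta-hexosaminidase A, and it is also known as a lipid carrier in the loading of CD1 molecules. Gm2a averaged 253 ± 7.27 CPM in Lgmn KO, against 374 ± 16.7 CPM in WT (SD, n = 3 each). On the log2 scale this was a change of -0.56 ± 0.07 (standard error) with a 95% interval of -0.71 to -0.41, or a fitted 67.8% of the WT level (adjusted p = 0.0224, edgeR). DESeq2 gave an adjusted p of 1.58e-09 and limma-voom one of 0.0218. The authors' deposited table lists a log2 fold change of -0.57 and a q of 0.000782 for Gm2a. Leaving out any 1 library other than WT replicate 1 ended the edgeR call, with an adjusted p of 0.0509 to 0.117, while the log2 fold change stayed between -0.60 and -0.54 in all 6 such fits. In a bulk sample, fewer cells of a type and less RNA per cell cannot be told apart. Among the marker sums given above, those of macrophages, of T and NK cells and of fibroblasts were lower in every Lgmn KO library than in WT. Those of neutrophils and endothelial cells were higher in every Lgmn KO library, but only just. The lowest Lgmn KO sums were 201 and 796 CPM, and the highest WT sums 199.8 and 794 CPM. The sums for resident cardiac macrophages, for monocytes and recruited macrophages and for dendritic cells overlapped between groups. The part of cell composition in the fall was not tested.

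Hexa, the alpha subunit of beta-hexosaminidase A, was at 1895, 1738 and 1882 CPM in Lgmn KO, against 1946, 1678 and 1832 CPM in WT, and the groups overlapped. Its log2 fold change was 0.02, with a 95% interval of -0.17 to 0.20. Gm2a CPM amounted to 13.8% ± 1.05 of Hexa CPM in Lgmn KO, against 20.7% ± 2.35 in WT (SD, n = 3 each).

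Promoters of lysosomal genes are known to carry E-box elements bound by the MiT/TFE factors, and their shared consensus is called CLEAR. The 250 bases before the RefSeq start (GRCm38.p6) were available for 31 of the 34 members. The full palindromic CLEAR consensus was found in 0 of these 31 genes, its inner letters TCACGTGA in 1 and the core CACGTG, which lies within both, in 7 (22.6%). Each motif reads the same on both strands. Among all 27025 genes with such a promoter the core was found in 6.86%, and among those tested here in 10.2%. The full consensus was found in only 0.648% of those tested, and TCACGTGA in 1.81%. The 7 genes with the core were Gla, Sgsh, Lamp1, Glb1, Arsa, Gaa and Naglu. Their log2 fold changes lay between -0.02 (Arsa) and 0.20 (Gla), and none of the 7 was called. The sequences below show the called member, the member with the inner motif and the member with the most cores. The choice of Gm2a and Lamp1 was made after values were seen. Capitals mark CACGTG in Gm2a and Lamp1 and TCACGTGA in Gla. Gm2a has no match in this window. Its window ends at base 55097984, short of the gene's start in GENCODE M21 (55098115), and the bases between were not searched. Gla has 2 matches with the first starting at base -228 before the gene's start, and Lamp1 has 4 with the first at base -61.
Gm2a, chr11:55097735-55097984, plus strand: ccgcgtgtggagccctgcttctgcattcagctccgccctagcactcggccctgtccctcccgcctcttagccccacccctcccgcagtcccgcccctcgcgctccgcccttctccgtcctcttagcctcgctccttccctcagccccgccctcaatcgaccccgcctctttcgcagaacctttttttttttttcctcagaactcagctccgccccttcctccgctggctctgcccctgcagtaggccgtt
Gla, chrX:134601006-134601255, minus strand: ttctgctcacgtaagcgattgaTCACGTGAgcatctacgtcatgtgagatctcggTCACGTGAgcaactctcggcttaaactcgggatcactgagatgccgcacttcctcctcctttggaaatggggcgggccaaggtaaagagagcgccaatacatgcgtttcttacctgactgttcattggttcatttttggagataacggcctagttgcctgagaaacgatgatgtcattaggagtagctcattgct
Lamp1, chr8:13158911-13159160, plus strand: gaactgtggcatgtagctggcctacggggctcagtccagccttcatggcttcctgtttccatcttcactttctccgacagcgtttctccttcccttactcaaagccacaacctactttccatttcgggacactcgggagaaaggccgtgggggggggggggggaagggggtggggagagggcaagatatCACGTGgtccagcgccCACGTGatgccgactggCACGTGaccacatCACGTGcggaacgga

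Levels between genes were compared as CPM per kb of gene length, averaged over the 6 libraries, with the length implied by the deposited FPKM values. They spanned from 5.39 for Arsb to 7310 for Psap. Psap, the precursor of the saposins that assist glycolipid hydrolases, alone gave 54.2% to 56.0% of the CPM summed over the members. The next in order were Lamp1 (1664), Cd68 (1637), Cd63 (1013), Hexa (980), Lipa (650) and Npc2 (532 CPM per kb). The lowest were Ctns (11.7), Manba (7.69), Arsa (7.19), Sgsh (5.73) and Arsb (5.39 CPM per kb), which are a cystine exporter and 4 exoglycosidases or sulfatases. Lamp1 and Cd68 exchanged places between the groups: Cd68 stood at 1740 and Lamp1 at 1708 CPM per kb in Lgmn KO, against 1534 for Cd68 and 1619 for Lamp1 in WT, and the ranges of the genes over the libraries overlapped in both groups.

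**Figure D2:**
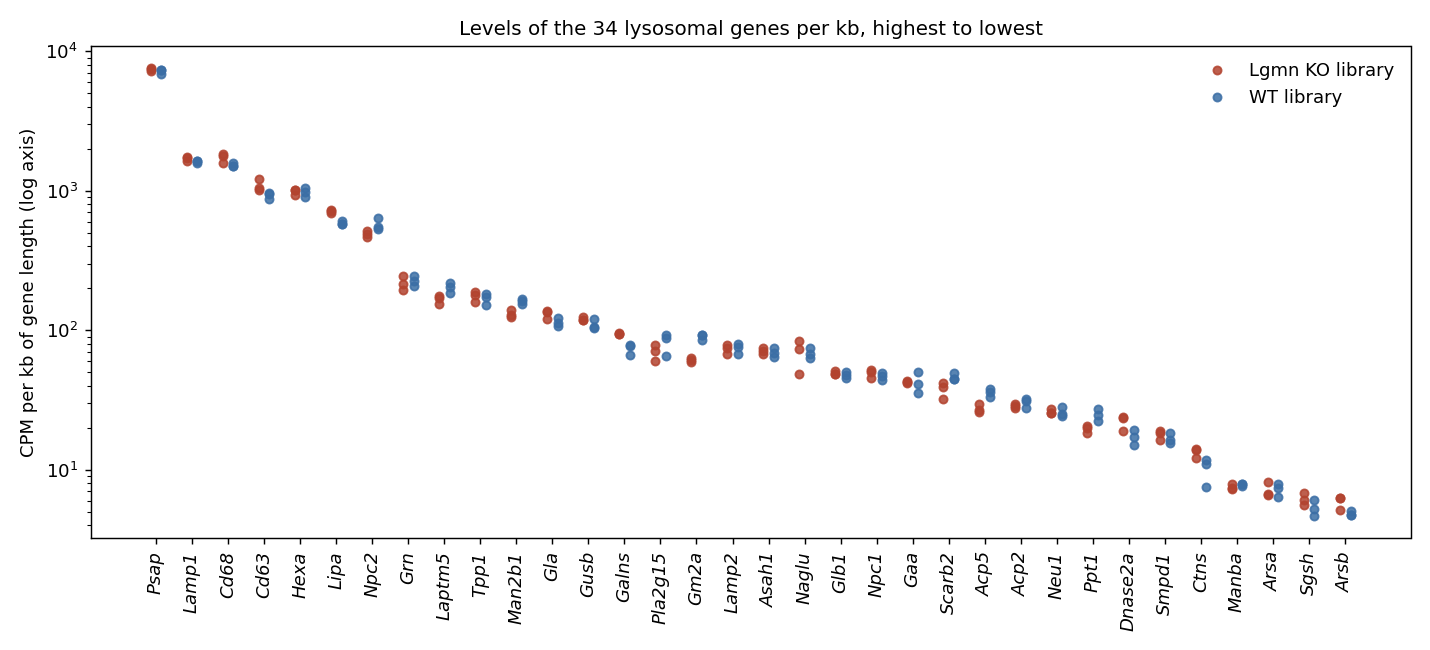
CPM per kb of gene length (log axis) of the 34 lysosomal genes, ordered by the mean of 6 libraries, with 1 point per Lgmn KO library (left, red) and WT library (right, blue). Psap lies at 7310 CPM per kb and Arsb at 5.39, and the distance between groups is small beside that between genes.

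With Gm2a included, 14 members had an unadjusted p under 0.05, 7 higher and 7 lower in Lgmn KO, where 6.9% of all genes tested were higher and 10.6% lower by that rule. The groups did not overlap for 13 members, 6 higher and 7 lower in Lgmn KO, where 23.7% of all genes tested had such groups in either direction. As the members were chosen with results of these data known, these shares are given as a description. DESeq2 called 2 members higher (Galns and Lipa) and 3 lower (Gm2a, Acp5 and Man2b1), where it called 2.26% of all genes higher and 4.15% lower. In 31 of the 34 members the 95% interval of the fold change lay within 1.5-fold either way, and in 9 within 1.2-fold. The exceptions to the wider bound were Gm2a, Ctns and Dnase2a.

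**Figure D3:**
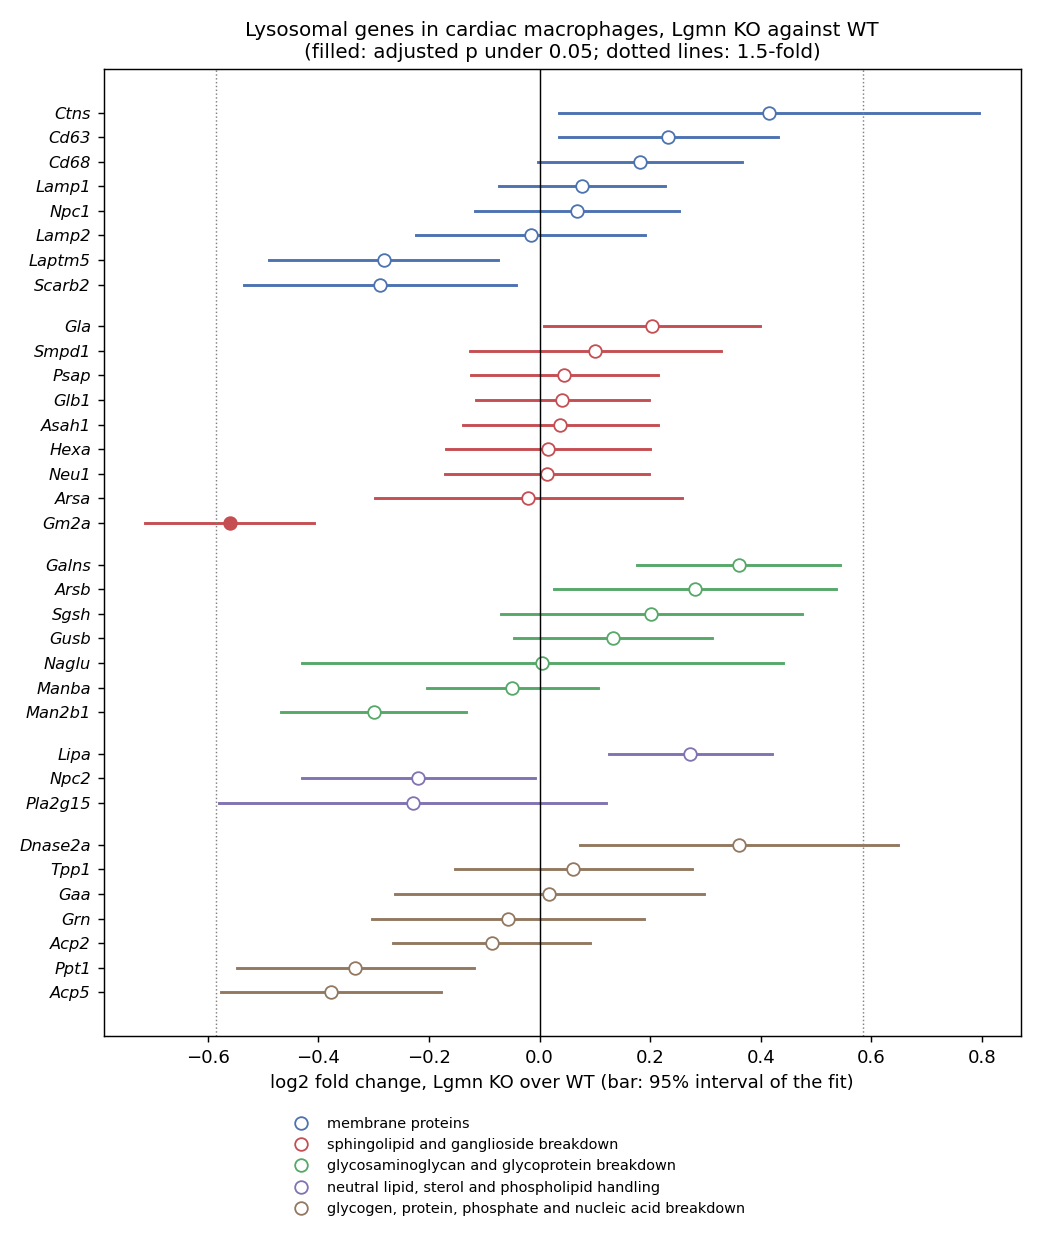
Fold change (log2, Lgmn KO over WT) with its 95% interval for the 34 lysosomal genes, grouped by role. The filled point is Gm2a at -0.56, the member with an adjusted p under 0.05, and the dotted lines mark 1.5-fold.

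Among the 8 membrane proteins 5 had a positive and 3 a negative log2 fold change, and none was called. Ctns, which exports cystine from the lysosome, was at 78.0, 76.7 and 66.7 CPM in Lgmn KO, against 41.3, 60.4 and 64.3 CPM in WT. The groups did not overlap, but the highest WT library came close to the lowest Lgmn KO library, and WT replicate 1 stood far below the other WT libraries. The log2 fold change of Ctns was 0.41 ± 0.16 (standard error; adjusted p = 0.251, edgeR quasi-likelihood test), and 0.24 without WT replicate 1. Cd63, a tetraspanin of late endosomes and lysosomes, was at 1247, 1054 and 1084 CPM in Lgmn KO, against 1000, 908 and 972 CPM in WT. All Lgmn KO libraries lay above the WT libraries, with Lgmn KO replicate 1 the highest.

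Scarb2, which encodes LIMP-2, the carrier of glucocerebrosidase to the lysosome, was at 282, 217 and 262 CPM in Lgmn KO, against 332, 299 and 299 CPM in WT. Laptm5, a lysosomal membrane protein of blood cells that dampens receptor signalling, was at 856, 973 and 935 CPM in Lgmn KO, against 1017, 1129 and 1217 CPM in WT. In both genes all Lgmn KO libraries lay below all WT libraries. The log2 fold changes were 0.23 for Cd63, -0.29 for Scarb2 and -0.28 for Laptm5, with adjusted p between 0.166 and 0.222 (edgeR quasi-likelihood test). Of these 4 genes, Laptm5, Scarb2 and Ctns had an unadjusted p under 0.05 in 4 of the 6 fits without 1 library and Cd63 in 3.

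Lamp1 and Lamp2, abundant glycoproteins that line the lysosomal membrane, had log2 fold changes nearer to 0. Lamp1 was at 3947, 3716 and 3894 CPM in Lgmn KO, against 3556, 3690 and 3708 CPM in WT. Its log2 fold change was 0.08, with a 95% interval of -0.07 to 0.23. The groups did not overlap, but Lgmn KO replicate 2 lay only just above WT replicate 3. Cd68, a macrophage member of the same protein family, was at 3280, 3697 and 3813 CPM in Lgmn KO, against 3111, 3114 and 3289 CPM in WT, so that the groups overlapped (log2 fold change 0.18, adjusted p = 0.292, edgeR quasi-likelihood test). Lamp2 averaged 734 ± 54.2 CPM in Lgmn KO, against 742 ± 61.7 CPM in WT (SD, n = 3 each). Npc1, the membrane protein that passes cholesterol out of the lysosome, averaged 768 CPM in Lgmn KO, against 733 CPM in WT (log2 fold change 0.07, standard error 0.08). The summed level of the membrane proteins was 11185, 11221 and 11583 CPM in Lgmn KO, against 10510, 10683 and 11039 CPM in WT.

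In the breakdown of sphingolipids and gangliosides, 7 of the 9 genes had a positive log2 fold change, 1 had an unadjusted p under 0.05 with a higher level in Lgmn KO (Gla), and Gm2a fell. Gla, the alpha-galactosidase that degrades globosides, was at 454, 402 and 457 CPM in Lgmn KO, against 410, 356 and 374 CPM in WT. Lgmn KO replicate 2 lay below WT replicate 1, so the groups overlapped, and the log2 fold change was 0.20 (edgeR quasi-likelihood test, adjusted p = 0.269). Psap was at 28698, 29954 and 30191 CPM in Lgmn KO, against 29180, 27524 and 29408 CPM in WT. The groups overlapped, and the log2 fold change was 0.05 with a 95% interval of -0.12 to 0.21. Gm2a, the other activator, was at 0.856% ± 0.0345 of Psap CPM in Lgmn KO and 1.30% ± 0.0908 in WT (SD, n = 3 each).

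The remaining enzymes of this group had log2 fold changes between -0.02 and 0.10. Glb1, the lysosomal beta-galactosidase, had a log2 fold change of 0.04, Asah1, acid ceramidase, of 0.04, Smpd1, acid sphingomyelinase, of 0.10, Neu1, the lysosomal sialidase, of 0.01, and Arsa, the sulfatase of sulfatides, of -0.02. Their adjusted p lay between 0.653 for Smpd1 and 0.956 for Neu1 (edgeR quasi-likelihood test). The 95% interval was narrowest for Glb1, from -0.12 to 0.20, and widest for Arsa, from -0.30 to 0.26.

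Of the 7 genes for the breakdown of glycosaminoglycans and glycoproteins, 5 had a positive log2 fold change and none was called by edgeR. Galns, a sulfatase that acts on keratan sulfate and chondroitin sulfate, was at 245, 245 and 245 CPM in Lgmn KO, against 201, 171 and 199 CPM in WT. The Lgmn KO libraries were nearly equal and all above the WT libraries. The log2 fold change was 0.36 ± 0.08 (standard error; adjusted p = 0.0831 by edgeR's quasi-likelihood test and 0.00555 by DESeq2), and the unadjusted p stayed under 0.05 in all 6 fits without 1 library. Arsb, the sulfatase of dermatan sulfate, was at 20.6, 25.2 and 25.0 CPM in Lgmn KO, against 20.3, 19.0 and 19.0 CPM in WT. Its groups were separated by Lgmn KO replicate 1 standing just above WT replicate 1, and the log2 fold change was 0.28 (edgeR quasi-likelihood test, adjusted p = 0.247).

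Man2b1, the lysosomal alpha-mannosidase that trims the glycans of glycoproteins, had a negative log2 fold change. It was at 542, 560 and 606 CPM in Lgmn KO, against 670, 701 and 731 CPM in WT, with all Lgmn KO libraries below all WT libraries. The log2 fold change was -0.30 ± 0.07 (standard error; adjusted p = 0.0938 by edgeR's quasi-likelihood test and 0.0228 by DESeq2), and the unadjusted p stayed under 0.05 in all 6 fits without 1 library. Manba, the beta-mannosidase that cleaves the next linkage of the same glycans, had a log2 fold change of -0.05 with a 95% interval of -0.20 to 0.11. Gusb, beta-glucuronidase, had one of 0.13, and Sgsh and Naglu, enzymes of heparan sulfate breakdown, of 0.20 and 0.01. Naglu was the least even of all members in Lgmn KO, where its libraries held 185, 278 and 321 CPM, against 284, 240 and 257 CPM in WT.

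Lipa and Npc2, which act in sequence on the cholesterol of engulfed lipids, had log2 fold changes of opposite sign. Lipa, the acid lipase that frees cholesterol and fatty acids from cholesteryl esters and triglycerides, was at 2130, 2195 and 2237 CPM in Lgmn KO, against 1781, 1773 and 1879 CPM in WT. Npc2, the soluble carrier that hands the freed cholesterol to Npc1, was at 1693, 1516 and 1597 CPM in Lgmn KO, against 1731, 2081 and 1782 CPM in WT. The groups did not overlap in either gene, although Lgmn KO replicate 1 lay near WT replicate 1 for Npc2. The log2 fold change was 0.27 for Lipa (adjusted p = 0.0907 by edgeR's quasi-likelihood test, 0.00509 by DESeq2) and -0.22 for Npc2 (adjusted p = 0.269 by edgeR and 0.2704 by DESeq2). Lipa CPM stood at 126%, 145% and 140.1% of Npc2 CPM in Lgmn KO and at 103%, 85.2% and 105% in WT. Npc2 lies on chromosome 12, as Lgmn does, 17.6 Mb from it, and is the only member on that chromosome. Pla2g15, the lysosomal phospholipase, averaged 190 ± 25.8 CPM in Lgmn KO, against 222 ± 39.1 CPM in WT (SD, n = 3 each), with overlapping groups.

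In the last group, which covers glycogen, protein, phosphate and nucleic acid breakdown and progranulin, 3 of 7 genes had a positive log2 fold change. Acp5, the tartrate-resistant acid phosphatase known from osteoclasts and activated macrophages, was at 43.4, 42.1 and 47.5 CPM in Lgmn KO, against 53.3, 61.3 and 58.1 CPM in WT. Ppt1, the thioesterase that removes palmitate from proteins, was at 118, 106 and 114 CPM in Lgmn KO, against 128, 157 and 142 CPM in WT. In both genes all Lgmn KO libraries lay below all WT libraries. The log2 fold change was -0.38 for Acp5 (adjusted p = 0.0862 by edgeR's quasi-likelihood test, 0.0201 by DESeq2) and -0.33 for Ppt1 (adjusted p = 0.131 by edgeR and 0.0532 by DESeq2). Both kept an unadjusted p under 0.05 in all 6 fits without 1 library. Of 9 other genes known from osteoclasts, 6 were tested, 3 with a positive and 3 with a negative log2 fold change, and 1 was called, Ctsk, the cathepsin that osteoclasts make together with Acp5, which was higher in Lgmn KO at 0.76 on the log2 scale (adjusted p = 0.0126, edgeR). The 9 genes summed to 1818 to 1964 CPM in Lgmn KO, against 1228 to 1456 CPM in WT, with Calcr and Oscar at 0 counts in all libraries.

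Dnase2a, the acid nuclease that degrades the DNA of engulfed cells, was at 177, 222 and 219 CPM in Lgmn KO, against 161, 181 and 140 CPM in WT. Lgmn KO replicate 1 lay within the WT range, and the log2 fold change was 0.36 ± 0.12 (standard error; adjusted p = 0.195, edgeR quasi-likelihood test). Gaa, the acid glucosidase that degrades glycogen, had a log2 fold change of 0.02, Tpp1, a tripeptidyl peptidase, of 0.06, Acp2, an acid phosphatase, of -0.09, and Grn, which encodes progranulin, of -0.06. Their adjusted p lay between 0.617 and 0.962 (edgeR quasi-likelihood test).

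**Figure D4:**
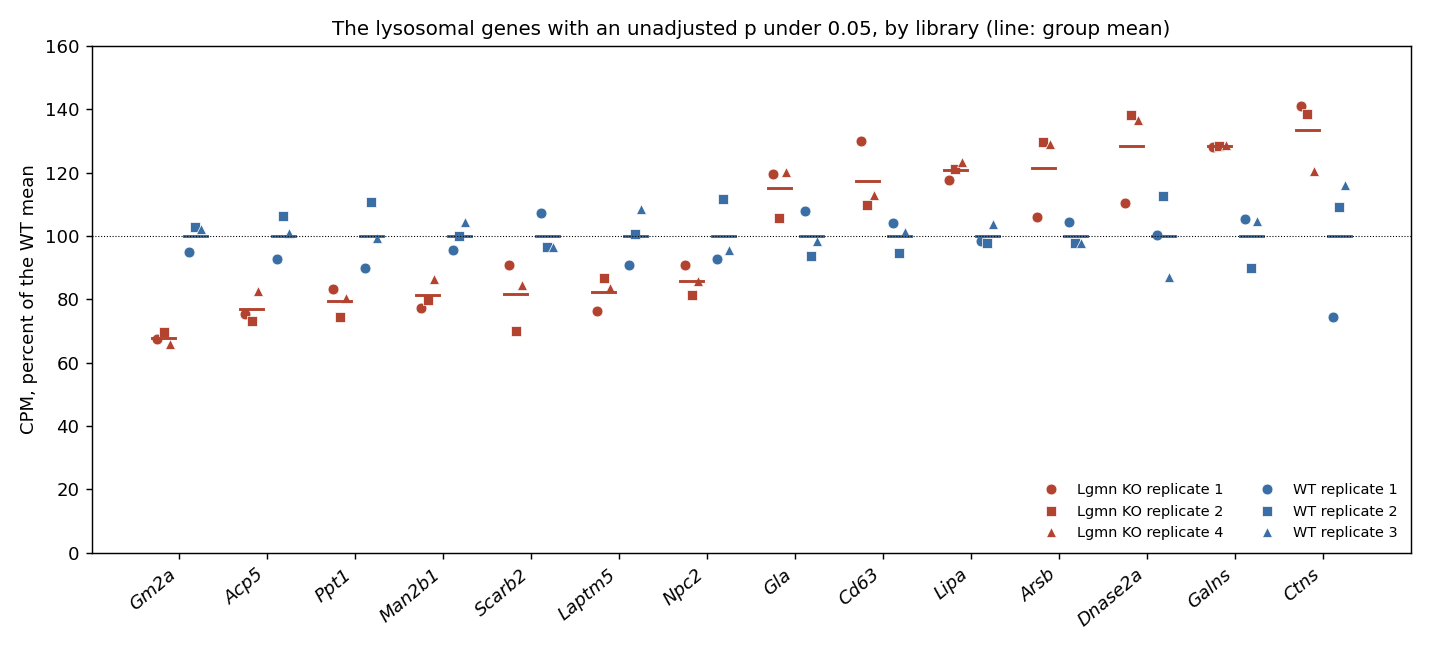
CPM as a percentage of the WT mean in each library for the 14 lysosomal genes with an unadjusted p under 0.05, with Lgmn KO (red) left of WT (blue), 1 symbol per replicate and a line at each group mean. Gm2a is lowest on the left, and the groups of Gla and Dnase2a overlap.

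The spread between libraries was small for most members. The median coefficient of variation over the 34 genes was 6.45% in Lgmn KO and 7.87% in WT, and over the 6322 tested genes with a mean CPM at or above the lowest member it was 6.21% in Lgmn KO and 7.48% in WT. It reached 20% in a group for 2 members, Naglu in Lgmn KO (26.6%) and Ctns in WT (22.3%). Among the 7 members with a lower level and an unadjusted p under 0.05, WT replicate 1 was the lowest WT library in 6, all but Scarb2, and among the 7 with a higher level it was the highest in 4. For Ctns it was the lowest WT library and the farthest from the Lgmn KO values. Without it 639 genes were called over all genes, and among the members 1 higher (Galns) and 3 lower (Gm2a, Ppt1 and Acp5).

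The 34 genes lie on 16 chromosomes, with 7 on chromosome 11 and 6 on chromosome 8, and all are annotated as protein coding. Gm2a (ENSMUSG00000000594) spans 55098115 to 55113029 on chromosome 11, plus strand, in the table and in GENCODE M21 (GRCm38), and its exons overlap no other annotated gene. In GENCODE M21 exons of 11 members overlap those of a gene on the opposite strand, and exons of Glb1 overlap Tmppe on the same strand. The positions listed with the counts equal those of GENCODE M21 for 21 of the 34 members. As the strand setting of the counting was not given in the sources used here, reads of such neighbours cannot be told apart. Among the 14 genes above this concerns Ppt1 with Cap1, Acp5 with 6530413G14Rik, Dnase2a with Mast1, and Arsb with Gm26527 and Gm47210. Cap1 was at 858 CPM in Lgmn KO, against 764 CPM in WT on average. Mast1 was at 0.0812 CPM in Lgmn KO, against 0.0718 CPM in WT on average, and Gm26527 at 0 counts in all libraries.

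The same comparison was read for other lysosomal enzymes and membrane proteins, a list of 65 names of which 64 were found and 61 tested. The edgeR quasi-likelihood test called none of them. At an unadjusted p under 0.05 there were 5 with a higher and 13 with a lower level in Lgmn KO, and DESeq2 called 3 higher and 5 lower. Over all genes tested 6.9% were higher and 10.6% lower by unadjusted p, and DESeq2 called 2.26% higher and 4.15% lower. The median log2 fold change was 0.04, with 34 positive and 27 negative. The smallest p belonged to Pla2g7, which hydrolyses oxidised phospholipids and is mainly secreted, at 287, 314 and 362 CPM in Lgmn KO, against 460, 593 and 530 CPM in WT (log2 fold change -0.72, adjusted p = 0.0507). Naaa, the amidase of N-acylethanolamines, followed at -0.94 on the log2 scale (adjusted p = 0.0519), and Ifi30, the lysosomal thiol reductase of antigen processing, at -0.59 (adjusted p = 0.0555, edgeR for the 3 genes). In these 3 genes all Lgmn KO libraries lay below all WT libraries. The most abundant by CPM, Gpnmb and Pld3, had log2 fold changes of 0.19 and 0.21.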

How the data were processed

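The 6 libraries were grouped by title into Lgmn KO and WT. The deposited table holds 1 count and 1 FPKM column per library. Deposited counts are whole numbers with different totals, taken as raw counts per gene. FPKM values were deposited by the authors, and in 100% of the 9082 genes whose counts reach 100 in each library they imply 1 gene length within 0.5 bases, which was used for CPM per kb. The authors' log2 fold changes and p-values with q-values were deposited without a named test. HISAT2, TopHat2 2.0.9, TopHat and hg38, a human build, are named in the submitters' processing notes, although 98.6% of gene IDs are in mouse GENCODE M21. The counter was not given in the sources used here.

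Genes were kept by filterByExpr, scaled by TMM and tested with edgeR 4.0.16 (R 4.3.3; glmQLFit, glmQLFTest), Lgmn KO against WT without covariate. Standard errors come from the F statistic. DESeq2 1.42.0, limma-voom (limma 3.58.1), other scalings, no filter, a replicate block and leaving out each library were alternatives. Pairs of libraries within a group differed by 14.0 to 42.7 times sampling noise (chi-square over degrees of freedom), so each was counted separately. The common biological coefficient of variation was 16.1%. The procedure was tested on simulated data. Members, lists and motifs were chosen with earlier results of these data known. All members were named, with library values for those with unadjusted p under 0.05 and the 5 highest per kb. For Naglu they were added after its values were seen. From other lists the 3 genes with the smallest p and the 2 most abundant of the remaining genes were named. Promoter sequences are from RefSeq (GRCm38.p6).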

Additional observations from a re-analysis of the deposited data

How the results depend on the processing

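Over all genes 99 were called by edgeR, against 804 by DESeq2, 46 by limma-voom, 165 with library totals only, 318 without a filter on low counts and 503 at an adjusted p under 0.1. Leaving out 1 library gave 6 (without Lgmn KO replicate 2) to 639 (without WT replicate 1). Members called higher were 0, but 2 by DESeq2, 2 at an adjusted p under 0.1 and 0 to 1 without 1 library. Members called lower were 1, but 3 by DESeq2, 3 at an adjusted p under 0.1 and 0 to 3 without 1 library. The replicate block gave 39 genes over all and 0 members lower. In that fit WT replicate 3 and Lgmn KO replicate 4 each stood alone in a block. Its fold changes therefore rest on replicates 1 and 2 of each group. Numbers 1 and 2 occur in both groups, and the deviations of same-numbered libraries correlated at 0.143 and 0.049. Those of differently numbered libraries correlated at -0.168 and -0.032. The labels state no pairing, so none was assumed. The adjusted p of Gm2a lay between 1.58e-09 (DESeq2) and 0.173 (edgeR with replicate block) over 12 alternatives. Its log2 fold change kept its sign in each. The median of the members stayed between 0.004 and 0.07. No alternative moved it by more than 1 SD between libraries.

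In 25 members the sign held in all 12 alternatives. The other 9, none of them called in any, crossed 0. Without 1 library their log2 fold changes ran from -0.0791 to 0.0424 for Lamp2, -0.03997 to 0.067 for Hexa, -0.123 to 0.0469 for Arsa, -0.00849 to 0.089 for Asah1, -0.0298 to 0.0797 for Neu1, -0.172 to 0.211 for Naglu, -0.0915 to 0.160 for Gaa, -0.00703 to 0.134 for Tpp1 and -0.155 to 0.0319 for Grn. With the replicate block Arsa was at 0.0552, Asah1 at -0.00064 and Naglu at -0.203. With library totals only Neu1 was at -0.0012 and Naglu at -0.00981, and limma-voom gave Naglu -0.0287. The cause of these shifts was not tested. The 95% interval lay within 1.2-fold either way for 9 members. In the other 25 it reached past that bound, so a change larger than 1.2-fold was not excluded.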

Other observations

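Newly made lysosomal enzymes are tagged with mannose phosphate in the Golgi and carried to the lysosome by sorting receptors. A list of 12 genes covered this route and steps before the Golgi. All 12 were tested and none was called by edgeR's quasi-likelihood test. Of these, 8 had a positive log2 fold change, and the median was 0.06. An unadjusted p under 0.05 was found for 3 with a higher and 1 with a lower level in Lgmn KO, and DESeq2 called 2 higher. Over all genes tested 6.9% were higher and 10.6% lower by that unadjusted p, and DESeq2 called 2.26% higher. Gnptg, a subunit of the tagging enzyme, was at 51.8, 39.4 and 42.8 CPM in Lgmn KO and 32.1, 32.4 and 33.7 CPM in WT (log2 fold change 0.45, adjusted p = 0.1003 by edgeR, 0.0157 by DESeq2). Sort1, the sorting receptor sortilin, was at 514, 486 and 458 CPM in Lgmn KO and 430, 362 and 394 CPM in WT (log2 fold change 0.30, adjusted p = 0.139 by edgeR, 0.042 by DESeq2). In both genes all Lgmn KO libraries lay above all WT libraries. Nagpa, which uncovers the tag, had a log2 fold change of -0.51 with overlapping groups. The mannose phosphate receptors M6pr and Igf2r had log2 fold changes of 0.02 and -0.09.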
